A study of Homo sapiens with 6 samples.

Results

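The genes described here are the 59 human genes of WNT signaling that encode WNT ligands, Frizzled (FZD) receptors, co-receptors, secreted antagonists, regulators of receptor turnover, Dishevelled and destruction complex proteins, and TCF/LEF transcription factors. A rule on gene symbols picked them from the 58825 gene identifiers of the table. They comprise 19 WNT ligands, 10 Frizzled receptors, 5 co-receptors, 9 secreted antagonists, 4 genes of receptor turnover, 8 genes of the Dishevelled and destruction complex group, and 4 TCF/LEF factors. All libraries came from SKOV3, an established human epithelial ovarian cancer cell line, and mRNA was sequenced 48 h after transient transfection. One group of 3 libraries received a negative control siRNA (NC), and the other group of 3 received an siRNA against EIF5A2 (si-EIF5A2), which encodes a translation factor. The labels name a single siRNA treatment against EIF5A2 in a single cell line, so that effects of this siRNA outside EIF5A2 and the loss of EIF5A2 itself cannot be told apart. The study's methods say in general that experiments were repeated, but neither they nor the labels say for these libraries that the 3 of a group came from separate cultures, so the p-values measure the spread between these libraries, which may be technical.

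WNT proteins are secreted, lipid-modified ligands that bind Frizzled receptors at the cell surface. Together with LRP5 or LRP6 they recruit Dishevelled and AXIN to the membrane, the destruction complex of AXIN, APC and kinases stops marking beta-catenin for degradation, and beta-catenin then acts with TCF/LEF factors on target genes in the nucleus. Other WNT-receptor pairs, many of them with WNT5A or WNT5B and the co-receptors ROR1, ROR2 or RYK, act through planar cell polarity or calcium signaling without beta-catenin, and secreted DKK and SFRP proteins block the ligands or co-receptors from outside. In ovarian cancer the pathway is studied for its part in stem-like growth and drug resistance.

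The targeted gene was lower in every library labelled si-EIF5A2. EIF5A2 was at 27.8, 29.8 and 29.9 CPM (counts scaled to the size of each library) in the 3 NC libraries and at 2.76, 4.04 and 4.27 CPM in the 3 si-EIF5A2 libraries, which is 12.7% of the NC mean. The library totals lay between 46900204 and 74142267 estimated counts, and profiles correlated at r = 0.964 to 0.974 within the groups and 0.929 to 0.938 between them, across genes. Among 8 markers of epithelial cancer cells, KRT8, KRT18, KRT7, PAX8 and ERBB2 were detected at 42.1 CPM or more in every library, EPCAM at 1.15 to 1.68 CPM and CDH1 at 0.172 to 1.0 CPM, while MUC16 had 0 counts. KRT8, KRT7 and PAX8 were lower in si-EIF5A2, with log2 fold changes of -0.69, -0.87 and -0.80. Of the markers of other cell types, PTPRC and CD3E had 0 counts, and of the leukocyte, endothelial and fibroblast markers reported here only PECAM1 and COL1A1 passed 1 CPM in any library. PECAM1 was at 1.62 to 2.04 CPM in NC and at 0 to 0.667 CPM in si-EIF5A2 and was not called, and its part in the values below was not tested.

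Of the 59 genes, 36 passed the filter on low counts and were tested, 11 had a few counts in at least 1 library but were too low to test, and 12 had 0 counts in all 6 libraries. A gene was called where edgeR's quasi-likelihood test gave a Benjamini-Hochberg adjusted p under 0.05 and the fold change between the groups was over 1.5. By this rule 12 of the 36 tested genes were called (33.3%), beside 24.6% of all 16208 genes tested. By direction, 9 of the 36 rose (25%, beside 11.1% of all genes) and 3 fell (8.33%, beside 13.6%). WNT5B, WNT10B, FZD6, FZD8, DKK1, DKK3, SFRP1, AXIN1 and TCF7L1 rose, and FZD4, LGR5 and LEF1 fell. The median log2 fold change of the 36 genes was 0.30, beside -0.01 over all genes, while the median size of change regardless of direction was 0.44, beside 0.45. Ranges of the groups were separate for 22 of the 36 genes (61.1%), beside 51.2% of all genes. The list was not tested against other genes. In bulk RNA, fewer cells that express a gene and less RNA of it per cell cannot be told apart.

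**Figure D1:**
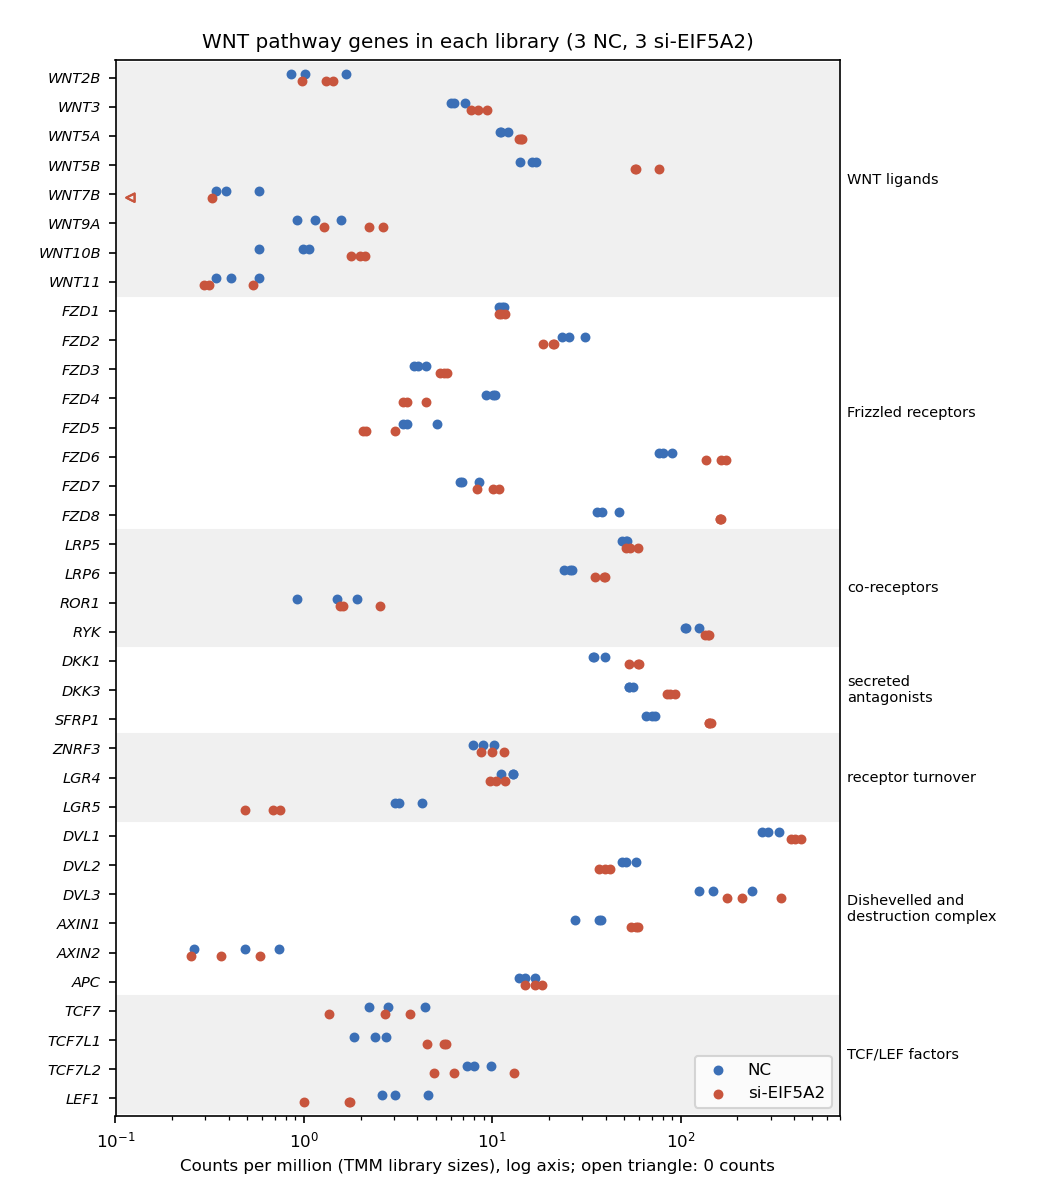
CPM of the 36 tested WNT pathway genes in each library (log axis), grouped by role; blue points are the 3 NC libraries, red points the 3 si-EIF5A2 libraries, and the open triangle marks libraries with 0 counts. Among the called genes WNT5B, FZD8, FZD4 and LGR5 show the widest gaps between the groups, while FZD1, TCF7L2 and AXIN2 overlap.

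Sequences just upstream of the start sites were taken for some of the called genes. A TCF/LEF motif there is one feature the choice of genes did not use. RefSeq (GRCh38.p14) gave such promoter windows for 42 of the 59 genes, as 50 windows of 250 bases. The letters searched were CTTTGAA or CTTTGAT or CTTTGTA or CTTTGTT on both strands, the core that TCF/LEF factors bind. A match was present in 3 of the 50 windows (6.0%), beside 4199 of all 35116 windows (12%). Letters of the E2F core (TTTCCCGC or TTTCGCGC or TTTGCCGC or TTTGGCGC, both strands) were present in 1 of the 50 windows (2.0%), beside 979 of all windows (2.79%). Windows were read singly for the called genes WNT5B, FZD4, FZD8, DKK1, AXIN1, TCF7L1 and LEF1, and among these only DKK1 held a match. Whether the other called genes have a window with a match was not examined gene by gene. Its 2 matches, CTTTGAA and CTTTGTT, lie on the strand of the gene at bases 156 to 162 and 175 to 181 of the window. A match is a run of letters, not a measured binding site. The window of DKK1 (chr10:52314031-52314280, plus strand) is shown for these matches, which are in capitals, and those of FZD8 (chr10:35642297-35642546, minus strand), FZD4 (chr11:86955396-86955645, minus strand) and LEF1 (chr4:108166302-108166551, minus strand) for the receptor that rose most, the receptor that fell and the TCF/LEF factor that fell. Each is written 5′ to 3′ along the strand of its gene.
DKK1: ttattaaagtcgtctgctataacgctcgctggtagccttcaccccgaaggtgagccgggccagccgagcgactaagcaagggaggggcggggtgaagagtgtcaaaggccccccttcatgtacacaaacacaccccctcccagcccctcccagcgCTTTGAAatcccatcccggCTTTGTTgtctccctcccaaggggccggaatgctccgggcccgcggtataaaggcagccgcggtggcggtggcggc
FZD8: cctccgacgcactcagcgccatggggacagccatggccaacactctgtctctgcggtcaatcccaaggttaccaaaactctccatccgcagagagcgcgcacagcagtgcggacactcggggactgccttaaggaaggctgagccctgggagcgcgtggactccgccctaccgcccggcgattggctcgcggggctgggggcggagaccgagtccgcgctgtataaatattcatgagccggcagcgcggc
FZD4: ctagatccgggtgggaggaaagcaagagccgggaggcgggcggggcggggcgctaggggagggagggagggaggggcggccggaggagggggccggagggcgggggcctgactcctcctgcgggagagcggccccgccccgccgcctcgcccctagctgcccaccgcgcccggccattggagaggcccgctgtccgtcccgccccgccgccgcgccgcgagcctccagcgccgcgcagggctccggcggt
LEF1: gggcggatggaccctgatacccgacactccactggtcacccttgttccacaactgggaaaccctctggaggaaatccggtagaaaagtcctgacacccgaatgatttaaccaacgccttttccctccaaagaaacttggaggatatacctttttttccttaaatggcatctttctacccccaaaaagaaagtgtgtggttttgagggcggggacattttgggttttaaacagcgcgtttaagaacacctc
The 4 windows differ in base composition, with a GC content of 62.8% for DKK1, 65.2% for FZD8, 80.8% for FZD4 and 47.6% for LEF1, beside a median of 58.0% over all windows. The GENCODE release 29 span of LEF1 reaches beyond its window, so that this window is upstream of the RefSeq start only.

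Among the WNT ligands, WNT5B and WNT10B rose and none fell. WNT5B (ENSG00000111186; GRCh38, chr12:1529891-1647243, plus strand) encodes a ligand best known for signaling without beta-catenin. It was at 17.1, 16.3 and 14.1 CPM in the NC libraries and at 76.5, 57.0 and 57.7 CPM in the si-EIF5A2 libraries. The groups were far apart, and the lowest si-EIF5A2 library lay above the highest NC library by more than the whole NC range. The log2 fold change was 2.01 (SE 0.14; adjusted p = 3.46e-05, quasi-likelihood test in edgeR, Benjamini-Hochberg adjusted), a 4.03-fold rise. Its closest relative WNT5A, the ligand most often linked to planar polarity, was at 12.1, 11 and 11.2 CPM in NC and at 14.2, 13.9 and 14.3 CPM in si-EIF5A2. All 3 si-EIF5A2 libraries lay above the NC libraries, but the difference of 0.30 on the log2 scale (95% interval 0.05 to 0.56) did not pass the test (adjusted p = 0.0609 in edgeR). WNT10B, a ligand of the beta-catenin branch, was low throughout, at 0.987, 1.06 and 0.574 CPM in NC and at 1.78, 1.99 and 2.11 CPM in si-EIF5A2. The groups did not overlap and the log2 fold change was 1.16 (SE 0.32; adjusted p = 0.0234 in edgeR). The call was lost when NC replicate 3 was left out (log2 fold change 0.93, adjusted p = 0.0536) and when replicate 2 (1.15, 0.0592) or 3 (1.10, 0.0683) of si-EIF5A2 was, with each fold change still positive.

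The other tested ligands were not called. WNT3, a ligand of the beta-catenin branch, was at 6.04 to 7.15 CPM in NC against 7.67 to 9.39 CPM with si-EIF5A2, a log2 difference of 0.38 (95% interval 0.04 to 0.72). WNT9A was at 1.21 ± 0.330 CPM in NC, against 2.04 ± 0.701 CPM in si-EIF5A2 (SD, n = 3), WNT2B at 1.18 ± 0.439 and 1.24 ± 0.234 CPM, and WNT11 at 0.442 ± 0.121 and 0.381 ± 0.135 CPM. WNT7B was at 0.384, 0.579 and 0.340 CPM in NC, and in si-EIF5A2 it was at 0.326 CPM in replicate 2 with 0 counts in replicates 1 and 3. It was the only one of the 36 genes to pass the filter on low values in all 3 libraries of just 1 group. Its groups did not overlap, yet its level of a few fragments per library left a wide 95% interval of -5.03 to 1.09 on the log2 scale. Without si-EIF5A2 replicate 2 it was called lower (adjusted p = 0.0132 in edgeR), with both remaining si-EIF5A2 libraries at 0, so that the fitted fold change is no bound. WNT7A had 23 and 19 counts in NC replicates 2 and 3 and 0 counts in the other 4 libraries, and was not tested in the main fit. With DESeq2, and in edgeR without NC replicate 1, 1 ligand outside the genes of the main fit was called lower. WNT7A is the only such ligand with more than 12 counts in a library, but these calls were not listed by gene. WNT2, WNT4, WNT8B, WNT10A and WNT16 had at most 12 counts in any library, and WNT1, WNT3A, WNT6, WNT8A and WNT9B had 0 counts. For these 5 genes a count of 0 allows up to 3 fragments, or 0.153 to 0.237 CPM depending on the library, with counting error only.

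Set against each other per base of exon, the ligands shifted towards WNT5B. WNT5B made up 46.9% ± 0.406 (SD, n = 3) of the summed ligand level in NC and 73.0% ± 3.39 in si-EIF5A2. By library this share was 47.1%, 47.3% and 46.5% in NC and 76.6%, 69.8% and 72.5% in si-EIF5A2, with no overlap. The shares of WNT3 and WNT5A moved from 19.2% ± 1.60 and 19.8% ± 1.44 to 9.77% ± 1.56 and 9.53% ± 1.15, although neither gene was lower in CPM. These shares are descriptions of relative mRNA level, and a fall of one share follows where another rises.

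Of the Frizzled receptors, FZD8 and FZD6 rose and FZD4 fell. FZD8 (ENSG00000177283; chr10:35638249-35642278, minus strand), the receptor whose promoter window is printed above, was at 47, 38 and 35.9 CPM in NC and at 164, 162 and 161 CPM in si-EIF5A2. The 3 si-EIF5A2 libraries were almost equal and all lay far above NC. Its log2 fold change of 2.01 (SE 0.11; adjusted p = 1.18e-05 in edgeR) was a 4.03-fold rise, similar to that of WNT5B. An annotated microRNA gene, MIR4683, lies within its exon on the same strand over 81 bases. FZD6, a receptor tied to planar polarity that can restrain beta-catenin signaling, was at 89.7, 77.0 and 80.2 CPM in NC and at 173, 137 and 163 CPM in si-EIF5A2. The groups did not overlap, and the log2 fold change was 0.94 (SE 0.11; adjusted p = 0.000362 in edgeR). FZD4 (ENSG00000174804; chr11:86945679-86955391, minus strand), which also serves as the receptor of Norrin in blood vessels, was at 10.4, 10.1 and 9.29 CPM in NC and at 3.54, 3.37 and 4.46 CPM in si-EIF5A2. The highest si-EIF5A2 library was below the lowest NC library, and the log2 fold change was -1.39 (SE 0.16; adjusted p = 0.000379 in edgeR), which leaves 38.3% of the NC mean. The study also followed genes of stem cell pluripotency pathways by qRT-PCR after EIF5A2 knockdown, and its primer list includes FZD4. Its text names HES1, other than KLF4, as falling over 2-fold there, and gives no value for FZD4. Exons of FZD4 share 1399 bases with those of PRSS23 on the opposite strand, and whether the libraries kept strand was not given in the sources used here. PRSS23 was at 139 ± 10.1 CPM in NC, against 104 ± 1.33 CPM in si-EIF5A2, a log2 fold change of -0.42, and its part in the FZD4 value was not tested.

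FZD2 was lower by a smaller margin. It was at 31.1, 25.6 and 23.4 CPM in NC and at 18.7, 21.3 and 21.1 CPM in si-EIF5A2, a log2 fold change of -0.39 that had an adjusted p of 0.0457 in edgeR but was below the limit of 1.5-fold. FZD5 was at 5.06, 3.54 and 3.36 CPM in NC and at 2.05, 2.13 and 3.04 CPM in si-EIF5A2. Its groups did not overlap, its log2 fold change was -0.73 (95% interval -1.32 to -0.14), and its adjusted p of 0.0579 in edgeR missed the threshold narrowly. It was called lower in 3 of 13 alternative analyses, those with a minimum of 10 counts in every library (adjusted p = 0.0473), with counts divided by their step (0.0474) and without si-EIF5A2 replicate 3 (0.0365). FZD3 and FZD7 had log2 differences of 0.43 (95% interval 0.07 to 0.79) and 0.40 (0.03 to 0.78) and were not called. FZD1 was at 11.2 ± 0.341 CPM in NC, against 11.3 ± 0.421 CPM in si-EIF5A2, and the 95% interval of its log2 difference was -0.25 to 0.26. FZD9 had at most 8 counts in a library and FZD10 had 0.

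Because CPM values favour long mRNAs, the receptors were ordered by TPM, a level per base of exon scaled to the same total in each library and computed from the counts and the exon lengths. In NC, FZD6 stood first at 55.9 ± 3.58 TPM, followed by FZD2 at 34.9 ± 4.34 TPM and FZD8 at 27.6 ± 3.38 TPM (mean ± SD, n = 3). In si-EIF5A2, FZD8 at 117 ± 4.23 TPM and FZD6 at 113 ± 16.8 TPM stood together at the top, closer than their spread, and FZD2 followed at 28.0 ± 1.52 TPM. No other Frizzled gene exceeded 7.32 TPM in the mean of either group. FZD8 went from 20.5% ± 0.94 to 42.9% ± 1.86 of the summed Frizzled level, FZD2 from 25.9% ± 1.44 to 10.3% ± 1.15, and FZD6 stayed between 37.7% and 43.6% in all 6 libraries. FZD2 stood above FZD8 in all 3 NC libraries and below it in all 3 si-EIF5A2 libraries.

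No co-receptor was called. LRP6, the main co-receptor of the beta-catenin branch, was at 24, 26.3 and 25.8 CPM in NC and at 39.8, 34.9 and 39.0 CPM in si-EIF5A2. Those groups did not overlap, and the log2 fold change of 0.58 (SE 0.094; adjusted p = 0.00201 in edgeR) fell just short of the limit of 1.5-fold. LRP6 passed it with RLE normalization (0.59) and when replicate 2 of NC (0.61) or of si-EIF5A2 (0.64) was left out. RYK, a receptor for WNT5A and other ligands, was at 105, 107 and 125 CPM in NC and at 139, 135 and 142 CPM in si-EIF5A2. It too had an adjusted p under the threshold (0.0252 in edgeR) with a difference below 1.5-fold, 0.31 on the log2 scale. LRP5 differed by 0.11 (95% interval -0.09 to 0.31) and ROR1 by 0.38 (-0.44 to 1.21). ROR1, a receptor of WNT5A, was low at 1.44 ± 0.504 CPM in NC, against 1.89 ± 0.546 CPM in si-EIF5A2, and ROR2 had 0 counts.

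Of the 9 secreted antagonists only 3 could be tested, and all 3 rose, beside 11.1% of all genes tested. SFRP1, which binds WNT proteins and keeps them from Frizzled, was at 65.7, 70.7 and 73.1 CPM in NC and at 142, 142 and 144 CPM in si-EIF5A2, a log2 fold change of 1.03 (SE 0.072; adjusted p = 3.14e-05 in edgeR). DKK1 (ENSG00000107984; chr10:52314296-52318042, plus strand) blocks LRP5 and LRP6, is itself a target of beta-catenin in many cells, and is the gene with the TCF/LEF letters printed above. It was at 34.2, 34.7 and 39.4 CPM in NC and at 53.3, 59.8 and 59.3 CPM in si-EIF5A2, a log2 fold change of 0.67 (SE 0.095; adjusted p = 0.00105 in edgeR). DKK3, a member of the DKK family whose role in WNT signaling is less settled, was at 56.0, 53.2 and 53.0 CPM in NC and at 93.6, 87.3 and 85.0 CPM in si-EIF5A2, a log2 fold change of 0.71 (SE 0.077; adjusted p = 0.000259 in edgeR). In each of the 3 genes every si-EIF5A2 library lay above every NC library, and each call held when any 1 library was left out. With the stricter limit of 2-fold in the study's methods only SFRP1 was called, since DKK1 (1.59-fold) and DKK3 (1.64-fold) lie below it. In TPM, DKK1 was the highest of the 3 in NC (45.3 ± 4.59, beside 40.6 ± 3.13 for SFRP1) and SFRP1 in si-EIF5A2 (87.0 ± 3.04, beside 75.6 ± 3.53 for DKK1), an order found in each library of the group. The other antagonists were absent or nearly so, with 4 counts in 1 NC library for DKK2 and 0 counts for DKK4, SFRP2, SFRP4, SFRP5 and FRZB.

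**Figure D2:**
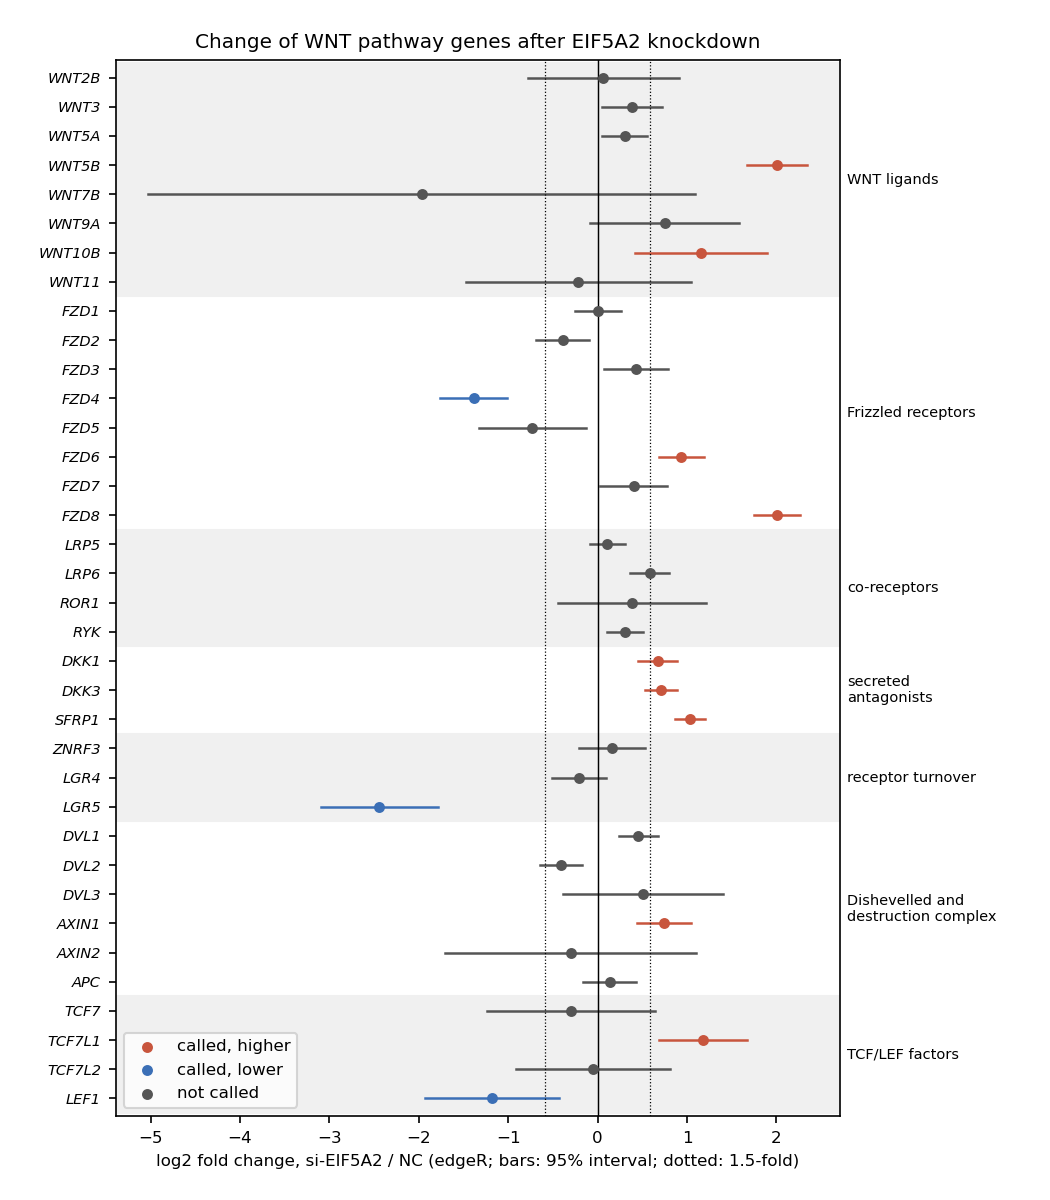
Log2 fold change (si-EIF5A2 over NC, edgeR) of the 36 tested WNT pathway genes by role, with 95% intervals; red marks genes called higher, blue genes called lower, grey genes not called, and dotted lines the limit of 1.5-fold. The 3 antagonists lie together on the right, LGR5 has the most negative called value (-2.44), and WNT7B has the widest interval.

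Among the genes of receptor turnover LGR5 fell, and it had the largest fold change of the 12 called genes. LGR5 (ENSG00000139292; chr12:71439770-71586310, plus strand) encodes a receptor of R-spondins, marks stem cells in several epithelia and is also a target of beta-catenin. It was at 3.06, 3.20 and 4.25 CPM in NC and at 0.489, 0.747 and 0.688 CPM in si-EIF5A2. Groups were far apart, with si-EIF5A2 at 18.3% of the NC mean, and the log2 fold change was -2.44 (SE 0.28; adjusted p = 0.000371 in edgeR). Leaving out any 1 library gave values between -2.57 and -2.29. Its relative LGR4 was at 12.3 ± 1.08 CPM in NC, against 10.6 ± 0.956 CPM in si-EIF5A2 and was not called (log2 difference -0.21, 95% interval -0.51 to 0.09). ZNRF3, a ubiquitin ligase that removes Frizzled from the membrane, had a log2 difference of 0.16 (-0.21 to 0.53). The related ligase RNF43 had at most 15 counts in a library and was not tested.

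In the Dishevelled and destruction complex group, AXIN1 rose. AXIN1, the scaffold of the destruction complex, was at 37.8, 36.8 and 27.5 CPM in NC and at 59.3, 58.0 and 54.3 CPM in si-EIF5A2, with no overlap. The log2 fold change was 0.75 (SE 0.13; adjusted p = 0.00285 in edgeR). AXIN2, the paralog that beta-catenin induces in many cells and that serves as a common readout of the pathway, was nearly silent. It was at 0.260, 0.734 and 0.489 CPM in NC and at 0.587, 0.364 and 0.250 CPM in si-EIF5A2, and at this depth a difference was not detectable (95% interval -1.71 to 1.11 on the log2 scale). DVL1 and DVL2, which pass the signal on from Frizzled, had adjusted p under the threshold in opposite directions. DVL1 was at 331, 292 and 271 CPM in NC and at 405, 437 and 384 CPM in si-EIF5A2, and DVL2 at 57.9, 48.6 and 51.3 CPM in NC and at 36.9, 42.4 and 39.7 CPM in si-EIF5A2. Their log2 fold changes of 0.46 (adjusted p = 0.00635) and -0.41 (adjusted p = 0.0141 in edgeR) were both below the limit of 1.5-fold. DVL3 varied too much within the groups to be read, from 125 to 239 CPM in NC, against from 176 to 339 CPM in si-EIF5A2. In TPM, DVL1 was the most abundant of the 36 genes, at 216 ± 17.1 in NC and 311 ± 13.6 in si-EIF5A2. APC had a log2 difference of 0.14 (95% interval -0.16 to 0.43), and NKD1 and NKD2, which restrain Dishevelled, had at most 19 counts in a library.

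Among the TCF/LEF factors TCF7L1 rose and LEF1 fell. TCF7L1, often a repressor of WNT targets, rose from 1.85, 2.39 and 2.72 CPM in NC to 5.67, 4.52 and 5.52 CPM in si-EIF5A2, a log2 fold change of 1.18 (SE 0.21; adjusted p = 0.00345 in edgeR). LEF1, more often an activator and the gene whose window is printed above, fell from 2.59, 3.05 and 4.55 CPM in NC to 1.74, 0.996 and 1.75 CPM in si-EIF5A2, a log2 fold change of -1.18 (SE 0.32; adjusted p = 0.0226 in edgeR). Neither gene had overlapping groups. The call on LEF1 was lost when NC replicate 3 was left out (log2 fold change -0.92, adjusted p = 0.0775) or si-EIF5A2 replicate 2 was (-0.96, 0.0592), whereas that on TCF7L1 held when any 1 library was left out. An antisense gene, LEF1-AS1, shares 279 bases of exon with LEF1. TCF7 and TCF7L2 had overlapping groups, with log2 differences of -0.29 (95% interval -1.23 to 0.65) and -0.05 (-0.92 to 0.81). In TPM, TCF7L2 led the 4 genes in NC at 3.44 ± 0.549, with LEF1 at 1.76 ± 0.572 and TCF7L1 at 1.46 ± 0.308. In si-EIF5A2, TCF7L1 at 3.46 ± 0.509 and TCF7L2 at 3.49 ± 1.91 were closer than their spread, and LEF1 was at 0.816 ± 0.254.

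Other genes of the pathway were counted in 4 lists. Of 20 genes for secretion and other extracellular partners, 8 were tested, 2 rose and 1 fell (37.5%, beside 24.6% of all genes). TPBG, a membrane inhibitor of LRP6 signaling, went from 26.8 ± 3.51 to 48.1 ± 2.10 CPM (mean ± SD, n = 3; log2 fold change 0.85). CTHRC1, a secreted protein that favours the planar polarity branch, went from 75.3 ± 2.65 to 129 ± 10.9 CPM (0.77). The gene that fell was PORCN, the enzyme that attaches the lipid to WNT proteins, from 9.52 to 4.77 CPM in the means (log2 fold change -1.0, adjusted p = 0.00292 in edgeR), named after its value was seen. WLS, which carries WNT proteins to the surface, had a log2 difference of -0.12 and was not called.

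Of 40 genes for intracellular transduction to beta-catenin, 37 were tested, 4 rose and 5 fell, which is 24.3% and so near the 24.6% of all genes. BTRC, a substrate receptor of the ubiquitin ligase for beta-catenin, fell from 26.4 ± 1.59 to 8.67 ± 1.33 CPM (log2 fold change -1.61). TNKS, the tankyrase that marks AXIN for degradation, fell from 45.7 ± 0.749 to 16 ± 1.29 CPM (-1.51), whereas its paralog TNKS2, named after its value was seen, rose by 0.70 on the log2 scale. FRAT2, which holds GSK3 away from AXIN, rose from 16.5 ± 1.89 to 42.3 ± 2.91 CPM (1.36), and the casein kinase CSNK1G3 from 20.3 ± 3.25 to 47.2 ± 3.32 CPM (1.22). The mRNA of beta-catenin itself, CTNNB1, was at 313 CPM in NC, against 322 CPM in si-EIF5A2 and was not called (log2 difference 0.04, adjusted p = 0.773 in edgeR).

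Of 37 genes of the planar polarity and calcium branch, 34 were tested, 4 rose and 7 fell (32.4%, beside 24.6% of all genes). PRKCA, a calcium-dependent kinase, fell from 181 ± 4.80 to 99.2 ± 1.16 CPM (log2 fold change -0.87). The phospholipase PLCB2 rose from 18.1 ± 0.963 to 30.3 ± 2.66 CPM (0.74), NLK, a kinase that acts on TCF/LEF factors, from 17.3 ± 1.70 to 28.8 ± 2.93 CPM (0.73), and MAPK8, the JNK1 kinase, from 33.9 ± 4.68 to 52.3 ± 2.91 CPM (0.63). The call on MAPK8 was lost when replicate 1 of NC (0.52) or of si-EIF5A2 (0.57) was left out, where it fell below 1.5-fold. The widest changes in this list were in genes of lower level, NFATC2 with -3.12 and PLCB4 with 2.32 on the log2 scale. The other genes that fell were PRICKLE1 (-1.41), NFATC4 (-1.25), CELSR2 (-1.05), VANGL2 (-0.91) and CDC42 (-0.61). These genes, NFATC2 and PLCB4 among them, were named after their values were seen.

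Of 30 genes often named as targets of TCF and beta-catenin, 22 were tested, 3 rose and 6 fell (40.9%, beside 24.6% of all genes). FN1, fibronectin, rose from 141 ± 8.0 to 588 ± 58.3 CPM (log2 fold change 2.06), TNFRSF19 from 7.29 ± 0.818 to 25.2 ± 1.41 CPM (1.79) and L1CAM, an adhesion molecule, from 7.78 ± 0.845 to 20.2 ± 1.45 CPM (1.38). BIRC5, survivin, fell from 23.0 ± 2.28 to 7.86 ± 2.70 CPM (-1.55). The other targets that fell were BMP4 (-1.49), FOSL1 (-1.08), CCND1 (-0.78), EPHB2 (-0.65) and TWIST1 (-0.63), named after their values were seen. MYC, also named after its value was seen, was at 12.7 to 15.5 CPM in NC and at 175, 13.9 and 14.1 CPM in si-EIF5A2. Its log2 difference of 2.23 rests on si-EIF5A2 replicate 1 and was not called (adjusted p = 0.214 in edgeR). The median log2 fold change of the tested genes was -0.38 in this list, -0.12 in the polarity and calcium list, 0.05 in the transduction list and 0.17 in the extracellular list, beside -0.01 over all genes. No list was tested as a set.

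**Figure D3:**
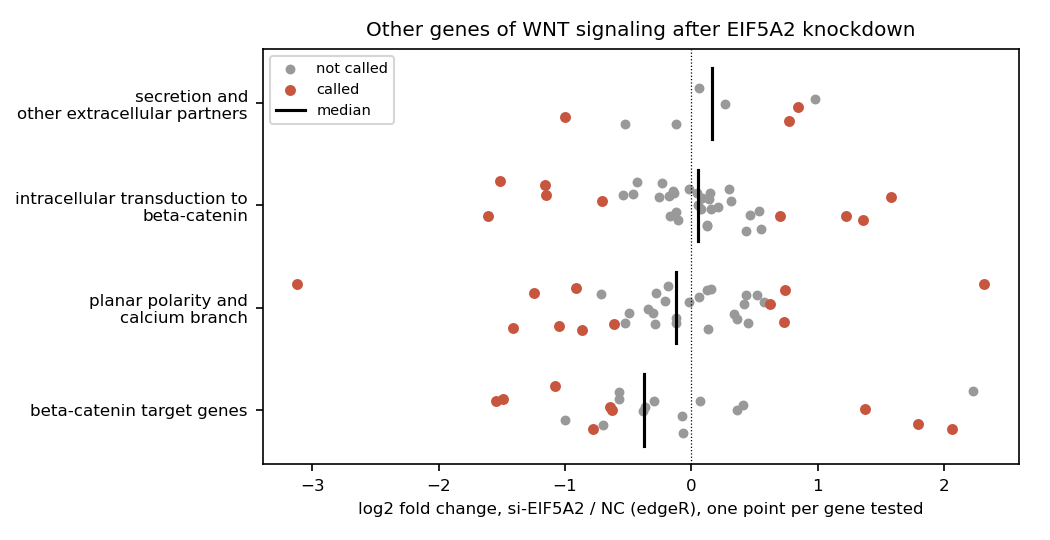
Log2 fold change (si-EIF5A2 over NC, edgeR) of the tested genes in 4 lists of other WNT signaling genes, 1 point per gene, spread vertically at random within a list; red points were called, grey points were not, and the black bar is the median of the list. Called genes lie on both sides of 0 in every list, and the medians run from -0.38 for target genes to 0.17 for extracellular partners.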

How the data were processed

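RNA of SKOV3 cells transfected with NC or si-EIF5A2 was measured by paired-end RNA-seq, with 3 libraries per group named by the labels. The authors used StringTie and ballgown to estimate transcript levels. The deposited table holds the resulting estimated counts for each gene as whole numbers without normalization. Low values pile up at multiples of 3.70 to 3.73 counts by library, so a fragment is worth several counts. The submitters' processing notes name Bowtie 0.12.2 and the mouse builds mm8 and mm9, which cannot be the source of human gene identifiers. The aligner and build used for these counts are not given in the sources used here. The design had assumed counts, and the estimated counts were used in edgeR with no further rounding.

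Symbols, positions and exon lengths came from GENCODE release 29 (GRCh38), which held 58552 of the 58825 identifiers. The 2 groups were compared in edgeR 4.0.16 under R 4.3.3, with no covariate, by robust quasi-likelihood fits after filterByExpr and TMM scaling. P-values were adjusted after Benjamini and Hochberg across 16208 genes. Calls required adjusted p < 0.05 together with more than 1.5-fold change. CPM used TMM library sizes, with factors of 0.985 to 1.01, and TPM divided counts by the merged exon length. The common biological coefficient of variation was 0.261. The statistic was tested on simulated counts that lacked the steps of the deposited values, so its behaviour on stepped counts was not tested there. Alternatives were RLE or upper-quartile scaling, DESeq2 1.42.0, no filter, at least 10 counts in every library, a replicate block, adjusted p only, the threshold of the methods, counts divided by their step, and each library left out. Members that passed the call were named with all values, and at most 4 called genes per list with a mean of at least 10 CPM and the largest changes, other genes being marked where named. One of the leukocyte markers is not reported here. The rule for the members reads gene symbols and no measured value, but this group of genes and the lists were proposed with earlier results of these data known.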

Additional observations from a re-analysis of the deposited data

How the results depend on the processing

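The number of called WNT pathway genes lay between 8 with the threshold of the methods (p before adjustment < 0.05 and more than 2-fold change) and 17 with adjusted p only, beside 12 in the report. When 1 library was left out it lay between 10 and 13 of 37 or 38 tested, while 21.8% to 23.3% of all genes tested were called. Over all 16208 genes tested the count was 3992 (24.6%). It was 5974 (36.9%) with adjusted p only and 2370 (14.6%) with the threshold of the methods. With adjusted p only, 16 of 37 tested genes of the transduction list were called, beside 36.9% of all genes. In the polarity and calcium list this setting called 19 of 34. With the threshold of the methods, 0 of 8 tested genes of the extracellular list were called, beside 14.6% of all genes. In the polarity and calcium list that threshold called 5 of 34. The alternatives that refit the data gave 464 log2 fold changes of the 36 WNT pathway genes tested in the report, which leaves out genes tested only in an alternative. Of these, 434 kept their direction and their side of the threshold, 6 lost the call, 7 gained one and 17 changed sign. All changes of sign were in genes that were not called. Adjusted p only and the threshold of the methods, which change only the rule for a call, were left out of this tally. FZD1 was at -0.0067 with upper-quartile normalization, -0.026 with no filter, -0.0051 with at least 10 counts in every library and -0.0042 with counts divided by their step, and between -0.029 and 0.027 when 1 library was left out. The same ranges were -0.13 to 0.41 for WNT2B, -0.55 to 0.020 for WNT11, -0.69 to 0.10 for AXIN2, -0.65 to 0.032 for TCF7 and -0.59 to 0.20 for TCF7L2; the cause was not tested. Deviations from the group means of same-numbered libraries correlated at -0.0244, 0.0052 and -0.0027, so no shared deviation was seen. These values cannot settle whether same-numbered libraries were handled together, which the labels do not say. With the replicate number as a block, 11 of 36 tested WNT pathway genes and 3731 genes in all (23%) were called. WNT10B was lost (adjusted p = 0.0515 in edgeR). Genes with levels of a few fragments, such as WNT7B, WNT11 and AXIN2, had intervals too wide for a change of 2-fold to be seen.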
